A study of Mus musculus with 19 samples.

Results

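The Hox cluster genes are 38 homeobox genes of the mouse HoxA (10 genes), HoxB (10), HoxC (9) and HoxD (9) clusters, found by symbol among 22756 gene entries of 19 RNA-seq libraries. All 38 were present. A Hox symbol stood inside a joined entry for 2 of them, Hoxa3 (joined with 2700086A05Rik) and Hoxa11 (joined with the antisense gene Hoxa11as), and a further clustered Hox gene is not analysed here. Every library came from 1 line of mouse embryonic stem cells that carries Rex1-GFPd2, a short-lived green fluorescent protein reporting on Rex1 (Zfp42), a gene of the naive pluripotent state.

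The study asked what AICAR, an AMP analogue that activates the energy-sensing kinase AMPK, does to cells that had already left pluripotency. Cells that had lost both SSEA1 and GFP after 2 days in serum-containing differentiation medium were sorted and kept in that medium to day 15, with or without AICAR. The groups were 8 lines grown from picked GFP+ colonies (colony lines 1, 3, 4, 5, 6, 7, 9 and 10) and 2 lines grown from sorted GFP+ cells (sorted lines 1 and 2), all 10 expanded in LIF with inhibitors of Mek and Gsk3 after AICAR. Cells at day 15 with AICAR gave 3 libraries of a GFP+ fraction, 1 of a GFP- fraction and 1 of the whole culture. The remaining single libraries were undifferentiated cells in LIF with both inhibitors, cells at day 2, the sorted SSEA1-/GFP- cells at day 2, and untreated cells at day 15. Groups follow the titles, which disagree with another label on the sort for the first day 2 library and the AICAR fractions. Whether replicates came from separate cultures is not said, and the spread behind each p-value may be technical.

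Hox proteins are transcription factors that tell cells where they lie along the head-to-tail axis. Their genes lie in clusters in the order in which they are used: low-numbered paralogues at one end pattern the hindbrain, middle ones the cervical and thoracic trunk, and high-numbered ones the lumbar, sacral and tail region and the distal limb and urogenital tract. In embryonic stem cells the clusters are held silent by Polycomb proteins, and retinoic acid, Wnt and Cdx proteins open them during differentiation. Here paralogue groups 1 to 3 are called anterior (7 genes), 4 to 8 central (15) and 9 to 13 posterior (16).

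Libraries held 5771671 to 8262357 reads in genes in the first sequencing project named in the file headers (17 libraries). AICAR GFP+ libraries 1 and 2, the second project, held 12751260 and 14233421. Levels are given as CPM, each gene's reads scaled to library size by TMM over all 19 libraries. A library with 0 reads for a gene allows up to 3 reads, which is 0.196 to 0.519 CPM. Such floors and the intervals below cover counting error only. The summed level of 9 naive pluripotency genes was 2226, 2079 and 1597 CPM in AICAR GFP+ libraries 1, 2 and 3, against 238 CPM in the untreated day 15 library and 2556 CPM in undifferentiated cells. The levels of 10 mesenchyme genes summed to 35040 CPM in the untreated day 15 library, where all 10 were at 1 CPM or more. All these samples are bulk RNA, in which fewer cells of a type and less RNA per cell cannot be told apart.

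Promoter sequence is shown for 4 neighbouring HoxA genes, the posterior Hoxa11, Hoxa10 and Hoxa9 and the central Hoxa7. They were picked because Hoxa11, Hoxa10 and Hoxa9 had their highest AICAR GFP+ level in the same library and Hoxa7 was low in each. Hoxa7 and the posterior Hoxa13, which is not printed, were also highest in that library. Each line is the 250 bases before the annotated start, on the minus strand of chromosome 6 (RefSeq, build GRCm38.p6), with every CpG, the dinucleotide that DNA methylation uses, in capitals. The positions are chr6:52245811-52246060 for Hoxa11, chr6:52240855-52241104 for Hoxa10, chr6:52227371-52227620 for Hoxa9 and chr6:52218574-52218823 for Hoxa7; the authors' reads were mapped to mm9, and no coordinate was carried over.
Hoxa11: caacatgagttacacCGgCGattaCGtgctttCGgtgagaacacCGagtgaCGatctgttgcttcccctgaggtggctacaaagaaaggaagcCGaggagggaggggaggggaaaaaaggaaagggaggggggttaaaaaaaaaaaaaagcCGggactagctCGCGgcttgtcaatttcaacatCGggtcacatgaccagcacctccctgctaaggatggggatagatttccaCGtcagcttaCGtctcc
Hoxa10: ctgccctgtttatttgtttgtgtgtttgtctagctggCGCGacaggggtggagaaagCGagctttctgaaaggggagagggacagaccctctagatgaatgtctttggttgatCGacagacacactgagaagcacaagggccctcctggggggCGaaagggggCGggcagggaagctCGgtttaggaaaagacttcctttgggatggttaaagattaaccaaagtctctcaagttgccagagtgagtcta
Hoxa9: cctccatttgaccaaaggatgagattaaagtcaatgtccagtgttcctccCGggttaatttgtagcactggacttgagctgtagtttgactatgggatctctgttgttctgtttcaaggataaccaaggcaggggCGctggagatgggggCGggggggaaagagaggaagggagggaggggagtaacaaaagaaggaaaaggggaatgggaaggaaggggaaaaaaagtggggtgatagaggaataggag
Hoxa7: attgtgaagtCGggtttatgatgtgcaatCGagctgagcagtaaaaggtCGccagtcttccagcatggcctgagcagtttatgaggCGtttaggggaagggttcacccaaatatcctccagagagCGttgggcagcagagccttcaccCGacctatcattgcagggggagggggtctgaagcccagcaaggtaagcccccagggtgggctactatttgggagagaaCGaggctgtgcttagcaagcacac
Hoxa11 held 13 CpG in this window, Hoxa10 held 7, Hoxa9 held 3 and Hoxa7 held 7. The window of Hoxa13 held 35 CpG. The table has another start for Hoxa10, not printed, whose window held 20 CpG. For 22 of the 38 genes the table had a promoter (24 windows), with a median of 12.5 CpG, against 6 CpG over 32851 windows of all genes. The Cdx-type site TTTATG, searched on both strands, occurred in 5 of the 24 Hox windows, that of Hoxa7 among them, and in 10.8% of all windows. The retinoid receptor motif AGGTCA (both strands) was in 6 of the 24 Hox windows and 14% of all windows. The octamer ATGCAAAT (both strands) was in 0 of the 24 and in 1.6% of all.

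Untreated differentiation to day 15 brought reads to nearly the whole family. In the untreated day 15 library 37 of the 38 genes had reads and 32 reached 1 CPM, against 6 in undifferentiated cells, 1 at day 2 and 1 in the sorted SSEA1-/GFP- cells. Summed over the family, the level was 148 CPM in the untreated day 15 library, against 5.25 CPM in the SSEA1-/GFP- cells, 5.97 CPM at day 2 and 17.8 CPM in undifferentiated cells. All 4 clusters took part: HoxA summed to 46.1 CPM, HoxB to 56.6 CPM, HoxC to 20.5 CPM and HoxD to 25.1 CPM at day 15, against 3.95, 4.40, 7.13 and 2.28 CPM in undifferentiated cells. Each of these groups is 1 library, so ratios carry no replicate check, and genes are called by size: over 2-fold with a prior count of 2, among those with at least 20 reads over both libraries.

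**Figure D1:**
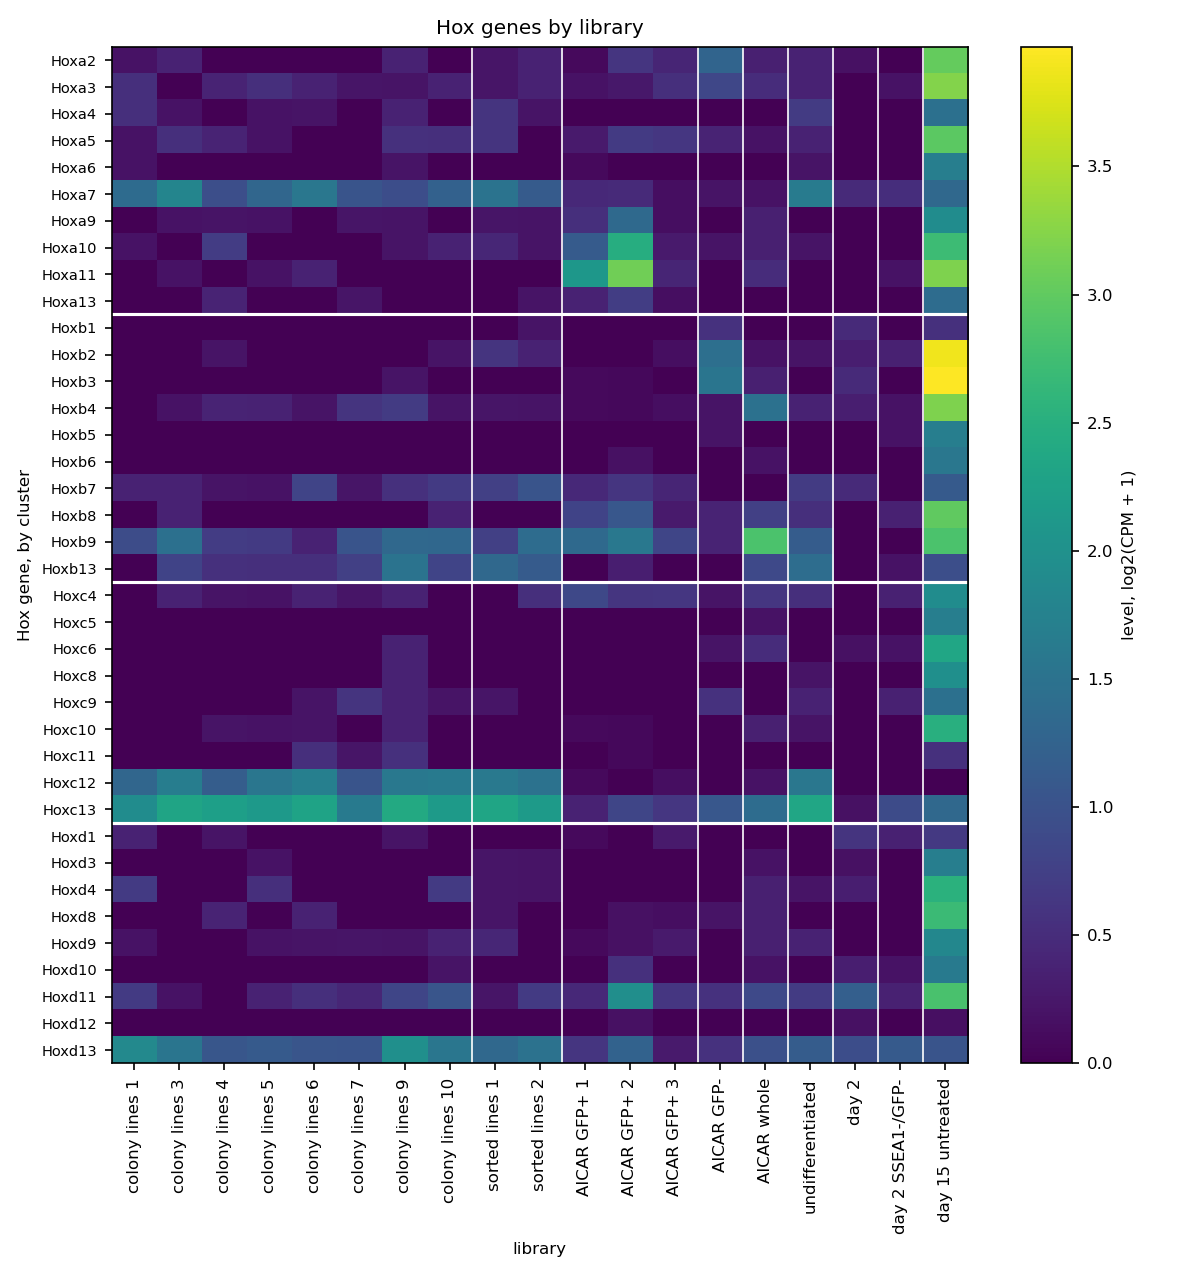
Level of each Hox gene (rows, by cluster, low to high paralogue number) in each library (columns), as log2(CPM + 1). The untreated day 15 library is bright in most rows of all 4 clusters (32 of 38 genes at 1 CPM or more), the lines show a few rows (Hoxa7, Hoxc12, Hoxc13, Hoxd13), and AICAR GFP+ libraries 1 and 2 show a patch at Hoxa9 to Hoxa11.

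Against undifferentiated cells 22 Hox genes had enough reads, and 20 of them were over 2-fold higher at day 15 (32.3% of all 13576 entries compared were) and 1 was over 2-fold lower (22.8% of all entries). Against the sorted SSEA1-/GFP- cells, from which the culture was started, 20 had enough reads and 20 were over 2-fold higher (29.9% of all), with 0 lower (21.3% of all). These genes had enough reads mostly through the day 15 library itself, so the counts describe the 2 libraries. From undifferentiated to sorted SSEA1-/GFP- cells only Hoxc13 had enough reads, and it was over 2-fold lower (10.4% of all entries were, and 12.5% were higher), with 0.876 CPM in the sorted cells and 4.10 CPM in undifferentiated cells.

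The 2 genes with most reads at day 15, Hoxb3 and Hoxb2, were anterior ones. Hoxb3, a hindbrain and neural crest patterning gene, was at 14.6 CPM at day 15, against 0 in SSEA1-/GFP- cells, 0.390 CPM at day 2 and 0 in undifferentiated cells, at least 32.1-fold higher than in undifferentiated cells. Its neighbour Hoxb2, which helps set the identity of the hindbrain's facial nerve segment, was at 13.8 CPM at day 15, against 0.292, 0.260 and 0.152 CPM in SSEA1-/GFP-, day 2 and undifferentiated cells. That is 91-fold over undifferentiated cells with a 95% counting interval of 16 to 3620, since the undifferentiated library had 1 read. Hoxa3, needed for thymus, parathyroid and throat cartilage, was at 8.43 CPM at day 15, against 0.146, 0 and 0.304 CPM in SSEA1-/GFP-, day 2 and undifferentiated cells (27.8-fold over undifferentiated cells, interval 7.41 to 234). Hoxa2, which patterns the second branchial arch, was at 7.14 CPM, against 0, 0.130 and 0.304 CPM (23.5-fold, interval 6.24 to 199). In these 4 genes the day 15 value stood far above all 3 earlier libraries. Hoxb1 and Hoxd1, of paralogue group 1, stayed low, at 0.468 and 0.585 CPM at day 15.

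Central genes came next. Hoxb4, a regulator of blood stem cell expansion, was at 8.19 CPM at day 15, against 0.146 CPM in SSEA1-/GFP- cells, 0.260 CPM at day 2 and 0.304 CPM in undifferentiated cells (27-fold over undifferentiated cells, interval 7.2 to 227). Hoxb8, known from myeloid progenitors and from microglia, was at 7.02 CPM, against 0.292, 0 and 0.455 CPM (15.4-fold, interval 5.03 to 76.9). Hoxa5, a lung and cervical patterning gene, was at 6.79 CPM, against 0, 0 and 0.304 CPM (22.4-fold, interval 5.92 to 189). Hoxd8, the 3' neighbour of the posterior HoxD genes, was at 5.50 CPM, against 0 reads in all 3 earlier libraries, at least 12.1-fold higher than in undifferentiated cells. Of the 15 central genes, all 15 were at 1 CPM or more at day 15, and Hoxa7 was the one whose level was lower there (1.52 CPM) than in undifferentiated cells (2.13 CPM), by a ratio of 0.716 whose interval of 0.31 to 1.64 takes in 1.

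Of the posterior genes 4 reached 5 CPM, Hoxa11, Hoxb9, Hoxd11 and Hoxa10. Hoxa11, a gene of the forearm, uterus and kidney, was at 8.19 CPM at day 15, against 0.146 CPM in SSEA1-/GFP- cells and 0 at day 2 and in undifferentiated cells, at least 18-fold higher than in the last. Hoxa10, which acts in lumbar vertebrae and the uterus, was at 5.62 CPM, against 0, 0 and 0.152 CPM (37-fold over undifferentiated cells, interval 6.33 to 1490). Hoxd11, the HoxD partner of Hoxa11 in limb and kidney, was at 6.09 CPM, against 0.292, 1.30 and 0.607 CPM (10.0-fold over undifferentiated cells, interval 3.69 to 38.2). Hoxb9, a thoracic gene, was at 6.20 CPM, against 0, 0 and 1.21 CPM (5.11-fold, interval 2.41 to 12.4). At the far end of HoxC, Hoxc13, a gene of hair and nail, was over 2-fold lower at day 15 (ratio 0.371, interval 0.176 to 0.745), and Hoxc12 had 0 reads.

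Levels of different genes can be ordered per length by the authors' RPKM (reads per kilobase of exon, 3' UTR left out, scaled to library size). In the untreated day 15 library Hoxb2 (12.9 RPKM), Hoxb3 (10.3 RPKM), Hoxb4 (7.56 RPKM), Hoxa5 (7.49 RPKM) and Hoxb9 (7.45 RPKM) stood first. The median was 6.30 RPKM over the anterior, 3.47 RPKM over the central and 1.66 RPKM over the posterior genes. With 1 library and 53 to 125 reads behind each of the first 5, neighbours in this order were not tested against each other.

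AICAR cultures held far less Hox RNA than the untreated culture of the same day, in every fraction. The family summed to 11.3, 26.8 and 6.28 CPM in AICAR GFP+ libraries 1, 2 and 3, to 10.9 CPM in the AICAR GFP- library and to 18.1 CPM in the whole AICAR culture, against 148 CPM in the untreated day 15 library. Across AICAR GFP+ libraries the sum averaged 14.8 ± 10.7 CPM (SD, n = 3). The 5 AICAR libraries all lay below the untreated one, and library 2 of the GFP+ fraction was the highest of the 5.

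**Figure D2:**
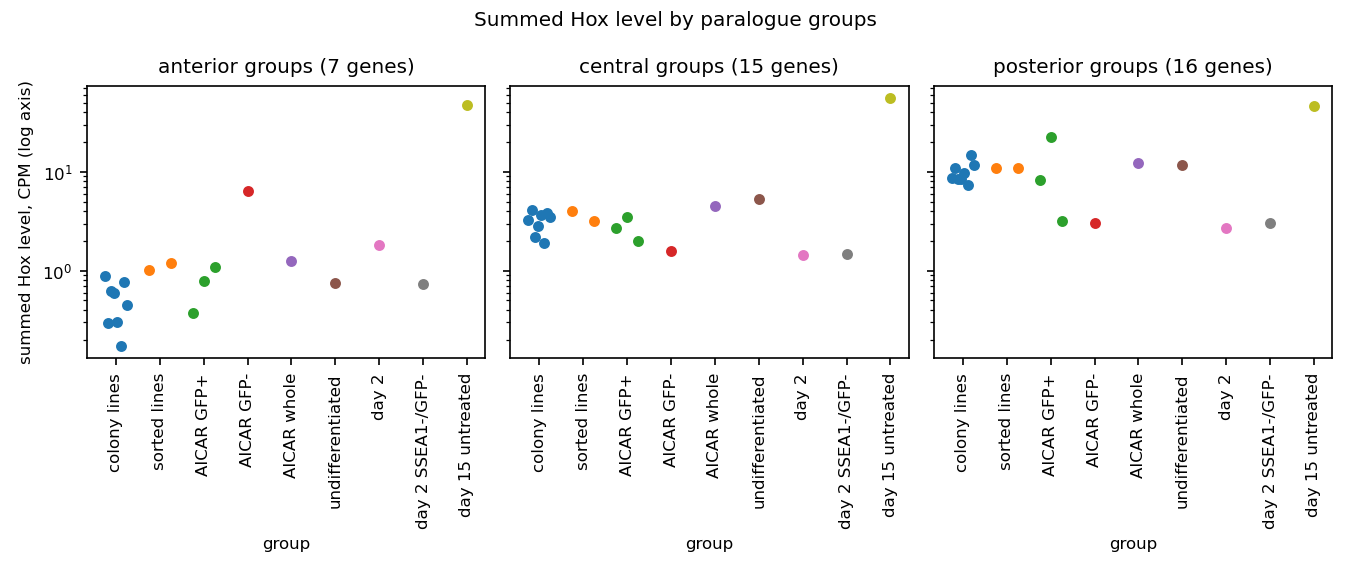
Summed CPM (log axis) of the 7 anterior, 15 central and 16 posterior Hox genes, 1 point per library, for the 10 lines, the 5 AICAR day 15 libraries and the 4 libraries of the untreated course. Anterior and central sums are low in every AICAR library except the anterior sum of the GFP- fraction (6.33 CPM), while posterior sums of AICAR GFP+ libraries run from 3.20 to 22.5 CPM.

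In the edgeR quasi-likelihood test of AICAR GFP+ against untreated day 15, 32 Hox genes passed the low-count filter, 21 fell at an adjusted p under 0.05 (23.2% of all 14857 entries fell) and 0 rose (23.1% of all entries rose). The 0 that rose stayed 0 at an unadjusted p under 0.05 and in DESeq2, and the 21 that fell compare with 14 in DESeq2. The median log2 fold change of the 32 was -4.70, or -4.445 with genes at 0 reads set at their bound, against -0.03 over all entries. Many of the 32 passed the filter through the untreated library alone, so the share that fell is a description. Of the untreated side there is 1 library, assumed to vary as the GFP+ libraries do, and leaving out GFP+ library 1 or 2 took the number that fell to 11 or 9.

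By position, 5 of the 5 anterior genes that passed fell, 13 of 15 central genes and 3 of 12 posterior genes. The 3 posterior ones, named here after their values were seen, were Hoxc9, Hoxc10 and Hoxd9. No test compared the 3 positions with each other. By cluster 5 of 10 HoxA genes, 6 of 8 HoxB, 6 of 7 HoxC and 4 of 7 HoxD genes that passed fell.

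**Figure D3:**
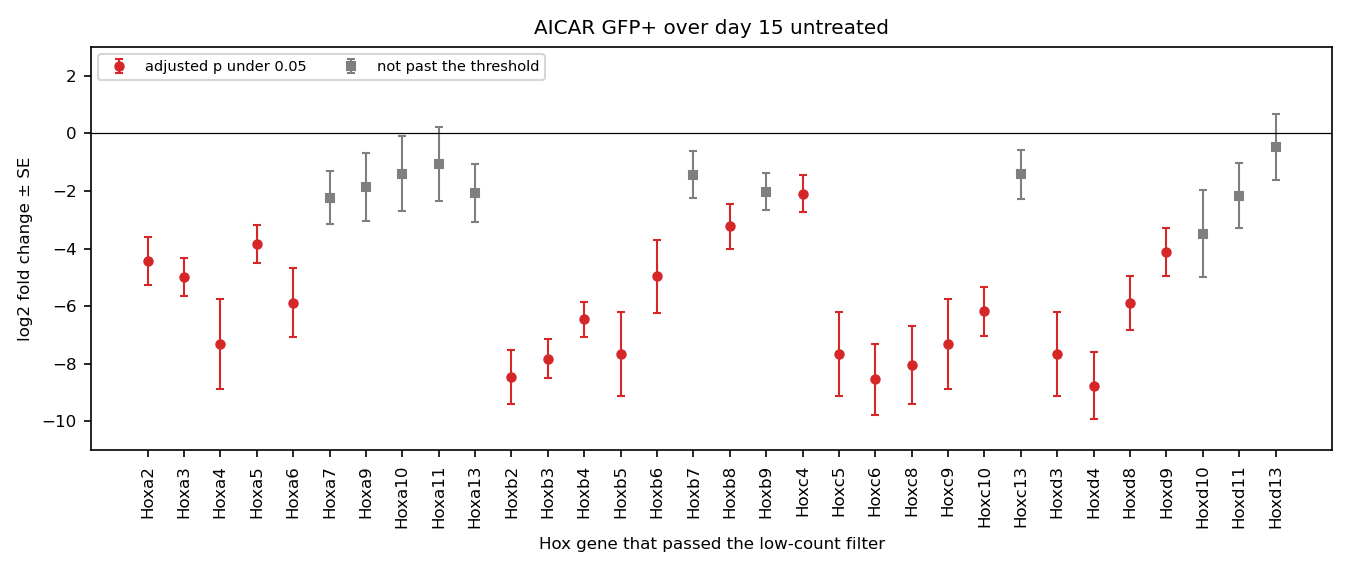
Log2 fold change of AICAR GFP+ (3 libraries) over untreated day 15 (1 library) with its standard error, for the 32 Hox genes that passed the filter, in cluster order. Circles mark the 21 genes at an adjusted p under 0.05, and the squares gather at the posterior end of HoxA and HoxD.

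Anterior genes were nearly absent from the AICAR GFP+ libraries. Hoxb2 was at 0, 0 and 0.110 CPM in AICAR GFP+ libraries 1, 2 and 3, against 13.8 CPM in the untreated library, a log2 fold change of -8.47 ± 0.94 (SE; edgeR adjusted p = 0.00453). Hoxb3 was at 0.0746, 0.0652 and 0 CPM, against 14.6 CPM (-7.82 ± 0.68, edgeR adjusted p = 0.00319). Hoxa3 was at 0.149, 0.196 and 0.441 CPM, against 8.43 CPM (-5.00 ± 0.66, edgeR adjusted p = 0.00625). These 3 genes were low in each GFP+ library. Hoxa2 was at 0.0746, 0.522 and 0.33 CPM, against 7.14 CPM (-4.42 ± 0.84, edgeR adjusted p = 0.0143).

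Central genes followed. Hoxb4 was at 0.0746, 0.0652 and 0.110 CPM in AICAR GFP+ libraries 1, 2 and 3, against 8.19 CPM in the untreated library (-6.46 ± 0.60, edgeR adjusted p = 0.00353). Hoxd8 was at 0, 0.131 and 0.110 CPM, against 5.50 CPM (-5.89 ± 0.94, edgeR adjusted p = 0.00946). Hoxa5 was at 0.224, 0.587 and 0.551 CPM, against 6.79 CPM (-3.84 ± 0.65, edgeR adjusted p = 0.0111). In none of them did a GFP+ library come near the untreated value. Hoxb8 was at 0.746, 1.11 and 0.220 CPM, against 7.02 CPM (-3.23 ± 0.77, edgeR adjusted p = 0.0263), and its adjusted p was 0.0597 without GFP+ library 1 and 0.0605 without library 2. Over all 3 positions 9 genes had 0 reads in all 3 GFP+ libraries, and Hoxd4 and Hoxc6 were the 2 of them with most reads at day 15. Counted against a floor of 3 reads over the group, Hoxd4 was at least 60.5-fold lower and Hoxc6 at least 51.6-fold lower than in the untreated library; both were chosen after their values were seen.

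The posterior HoxA genes and Hoxd11 did not pass the test, and their AICAR GFP+ libraries disagreed with each other. Hoxa11 was at 3.28, 7.57 and 0.33 CPM in AICAR GFP+ libraries 1, 2 and 3, against 8.19 CPM in the untreated library (-1.06 ± 1.29, edgeR adjusted p = 0.528). Hoxa10 was at 1.19, 4.57 and 0.220 CPM, against 5.62 CPM (-1.40 ± 1.31, edgeR adjusted p = 0.415). Hoxd11 was at 0.373, 2.87 and 0.551 CPM, against 6.09 CPM (-2.16 ± 1.12, edgeR adjusted p = 0.168); without library 2 it fell (-3.69, edgeR adjusted p = 0.0484). Library 2 was the highest of the 3 for each of these genes and library 3, of the first sequencing project, was the lowest for Hoxa11 and Hoxa10. Hoxa9 and Hoxa13, picked out after their values were seen as neighbours of these 2 HoxA genes, ran the same way. Hoxa9 was at 0.448, 1.57 and 0.110 CPM, against 2.81 CPM (-1.85 ± 1.18, edgeR adjusted p = 0.245), and Hoxa13 at 0.298, 0.652 and 0.110 CPM, against 1.64 CPM (-2.06 ± 1.01, edgeR adjusted p = 0.15). Counted in reads, Hoxa11 had 44, 116 and 3, and Hoxa10 had 16, 70 and 2, in libraries 1, 2 and 3.

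**Figure D4:**
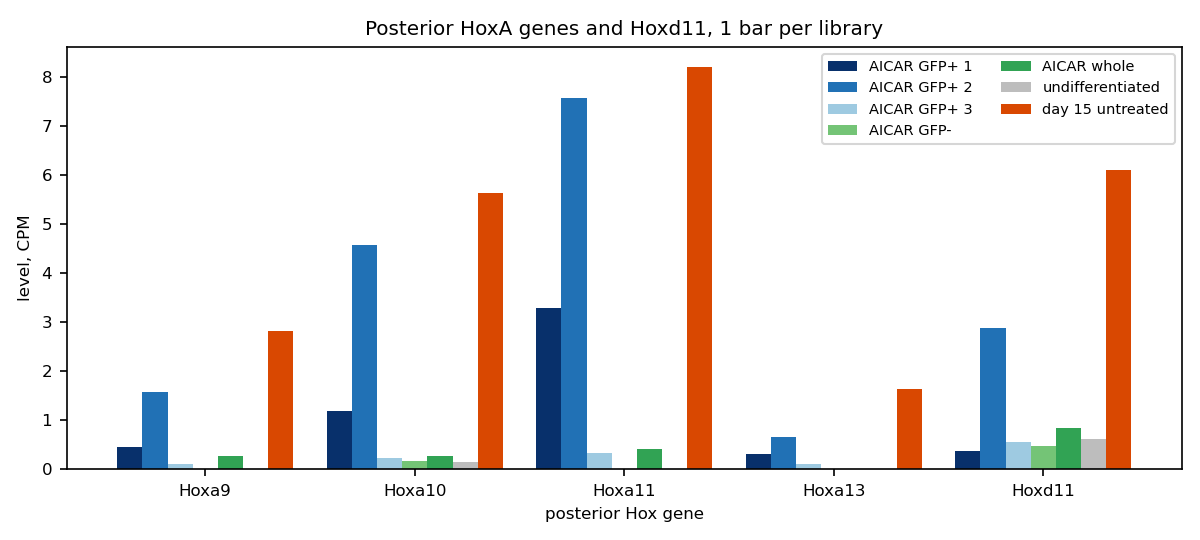
CPM of Hoxa9, Hoxa10, Hoxa11, Hoxa13 and Hoxd11, 1 bar per library, for the AICAR GFP+, GFP- and whole-culture libraries, undifferentiated cells and untreated day 15 cells. For Hoxa11, AICAR GFP+ library 2 (7.57 CPM) comes close to the untreated library (8.19 CPM), while GFP+ library 3 and the GFP- library are at 0.33 and 0 CPM.

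Posterior genes held 50.9 to 84.1% of the Hox reads in AICAR GFP+ libraries. Their share was 72.8% (exact 95% binomial interval 65.0 to 79.8%) in AICAR GFP+ library 1, 84.1% (80.2 to 87.5%) in library 2 and 50.9% (37.3 to 64.4%) in library 3, against 30.9% (28.3 to 33.5%) in the untreated library. In undifferentiated cells the share was 65.8% (56.5 to 74.3%), carried by other genes, since Hoxa9 and Hoxa11 had 0 reads and Hoxa10 had 1 read there. The posterior share was also high in the whole AICAR culture (67.9%), the colony lines (67.8 to 78.2%) and sorted lines 1 and 2 (68.4 and 71.6%). It was 27.5% in the AICAR GFP- library. Among mesenchyme genes the order of the AICAR GFP+ libraries was another one, with library 3 the highest. The 10 mesenchyme genes summed to 15.4, 23.3 and 207 CPM in AICAR GFP+ libraries 1, 2 and 3 (at 0 reads for 6, 3 and 0 of the 10), against 35040 CPM in the untreated library. Prrx1, a limb mesenchyme factor, had 0, 1 and 3 reads, against 924 reads in the untreated library. The 8 limb and lateral plate genes summed to 0.821, 1.31 and 1.76 CPM, against 134 CPM, and 0 of the 8 reached 1 CPM in any GFP+ library. The part of such cells in the posterior Hox levels was not tested.

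The exon length behind the Hoxa11 reads differed between the libraries. Hoxa11 shares its entry with Hoxa11as, the transcript of the opposite strand, and the counting command in the file headers names no strand option, so the reads of the sense gene and the antisense gene cannot be told apart. The length behind the authors' RPKM, taken from the reads, the RPKM and the library's read total, was 1181, 1462 and 1730 bases in AICAR GFP+ libraries 1 and 2 and the untreated library. From 3 reads each, it was 1365 bases in AICAR GFP+ library 3 and 1839 bases in the whole AICAR culture. The shortest value, from 1 read, was 1033 bases in the sorted SSEA1-/GFP- cells. The antisense transcript Hoxa11os is 1839 bases long in GENCODE. At Hoxd11 this length was 2248 bases in AICAR GFP+ library 2 and 2204 bases in the untreated library, against 3366 bases in AICAR GFP+ libraries 1 and 3 and in undifferentiated cells. The noncoding transcript of Hoxd11 is 3367 bases long in GENCODE and the coding one 1111 bases. The part of either transcript in the levels above was not tested.

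Hoxb9 was the posterior gene of HoxB with most reads. It was at 1.57, 2.02 and 0.771 CPM in AICAR GFP+ libraries 1, 2 and 3, against 6.20 CPM in the untreated library (-2.02 ± 0.63, edgeR adjusted p = 0.0529), just outside the threshold, and inside it with the other scaling tried (0.0487). In the whole AICAR culture Hoxb9 was at 6.21 CPM, level with the untreated culture (ratio 1.00, interval 0.657 to 1.52), and in the AICAR GFP- fraction at 0.317 CPM (ratio 0.051, interval 0.00602 to 0.194). Hoxb9 was thus higher in the whole AICAR culture library than in any AICAR GFP+ or GFP- library. The titles do not say whether these fractions were sorted from that same culture, and the reason for the difference was not tested.

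In the whole AICAR culture 22 Hox genes had enough reads against the untreated culture, and 20 of them were over 2-fold lower (19.6% of all entries) and 0 higher (10.7% of all). The 2 within 2-fold were Hoxb9 and Hoxc13 (1.66 CPM, against 1.52 CPM). Most of the 22 had enough reads through the untreated library, so these counts are a description. Hoxb4 was at 1.79 CPM, against 8.19 CPM (ratio 0.219, interval 0.111 to 0.399), while Hoxb2 was at 0.138 CPM, against 13.8 CPM (ratio 0.00998, interval 0.000251 to 0.0567). Hoxb3, Hoxa2 and Hoxa3 were at 0.276, 0.276 and 0.414 CPM there, Hoxa5, Hoxb8 and Hoxd8 at 0.138, 0.689 and 0.276 CPM, and Hoxa10, Hoxa11 and Hoxd11 at 0.276, 0.414 and 0.827 CPM. The mesenchyme sum was 7491 CPM in this library, against 35040 CPM in the untreated one.

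In the AICAR GFP- fraction most Hox reads came from anterior genes. Against the untreated culture 21 genes had enough reads, and 20 were over 2-fold lower (23.6% of all entries) and 0 higher (11.8% of all), Hoxc13 being the other one (1.11 CPM, against 1.52 CPM). Most of the 21 had enough reads through the untreated library, so these counts are a description. Against undifferentiated cells Hoxc13 alone had enough reads, and it was over 2-fold lower (13.5% of all entries were, and 19.2% were higher). Anterior genes held 58.0% of its Hox reads (exact 95% binomial interval 45.5 to 69.8%), against 31.9% (29.3 to 34.5%) in the untreated culture. Hoxb3 was at 1.90 CPM, Hoxb2 at 1.74 CPM, Hoxa2 at 1.43 CPM and Hoxa3 at 0.792 CPM in the GFP- library, from 12, 11, 9 and 5 reads. Hoxa11 and Hoxa9 had 0 reads there, Hoxa10 had 1 read, Hoxb4, Hoxd8, Hoxa5 and Hoxb8 were at 0.158, 0.158, 0.317 and 0.317 CPM, and Hoxd11 at 0.475 CPM. Cyp26a1, the retinoic acid-degrading enzyme that retinoic acid itself induces, was at 226 CPM in the GFP- library, against 59.5 CPM in the untreated culture, and its part in these levels was not tested.

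Between AICAR GFP+ and GFP- fractions the edgeR test called 0 of the 9 Hox genes that passed, higher or lower, and 0% of all 13821 entries in either direction. No Hox gene had an unadjusted p under 0.05 in that test, and DESeq2 called 0. GFP+ libraries 1 and 2 were of the second sequencing project and the GFP- library of the first. A fit without GFP+ library 3 therefore cannot tell fraction and project apart. Hoxa11 had the largest difference, at 3.28, 7.57 and 0.33 CPM in the GFP+ libraries and 0 CPM in the GFP- library (edgeR adjusted p = 0.261); without GFP+ library 3 it rose (edgeR adjusted p = 0.00413).

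Against undifferentiated cells no Hox gene passed the test in AICAR GFP+ cells. In the edgeR test 11 Hox genes passed the filter, 0 rose (2.43% of all entries rose) and 0 fell (2.62% fell). At an unadjusted p under 0.05 the counts were 0 and 3, and DESeq2 called 1 higher, Hoxa11, and 0 lower. The 3 were Hoxc12, Hoxc13 and Hoxa7, all lower in AICAR GFP+ cells. Hoxc13 had the smallest p, at 0.298, 0.783 and 0.551 CPM in AICAR GFP+ libraries 1, 2 and 3, against 4.10 CPM in undifferentiated cells (-2.90 ± 0.73, edgeR adjusted p = 0.076). Without GFP+ library 3, Hoxa11 and Hoxa10 rose (edgeR adjusted p = 0.00273 and 0.0422) and Hoxc13 fell (0.017). GFP+ libraries 1 and 2 were of the second sequencing project and the undifferentiated library of the first. State and project cannot be told apart without library 3. Fitted in 1 model with all 19 libraries, Hoxa7, Hoxb13, Hoxa4, Hoxc13 and Hoxc12 fell and Hoxa11 rose.

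In the lines grown in LIF and inhibitors after AICAR, Hoxc12, Hoxc13 and Hoxa7 were higher than in AICAR GFP+ cells. Hoxc12, Hoxc13, Hoxa7 and Hoxd13 are described for this reason, and were chosen after their values were seen, since none reached 5 CPM. Hoxc13 ran from 2.08 to 4.31 CPM over the 8 colony lines (median 3.6) and was at 4.06 and 3.46 CPM in sorted lines 1 and 2, against the AICAR GFP+ values above and 4.10 CPM in undifferentiated cells. Hoxc12 ran from 1.04 to 2.27 CPM over the colony lines (median 1.97) and was at 2.03 and 1.8 CPM in the sorted lines, against 0.0746, 0 and 0.110 CPM in AICAR GFP+ libraries 1, 2 and 3 and 1.97 CPM in undifferentiated cells. In both genes every line lay above every AICAR GFP+ library, and undifferentiated cells lay inside the range of the lines. Hoxa7 ran from 0.922 to 2.51 CPM over the colony lines (median 1.42) and was at 1.86 and 1.20 CPM in the sorted lines, against 0.373, 0.391 and 0.110 CPM in AICAR GFP+ libraries and 2.13 CPM in undifferentiated cells. Hoxd13, a digit gene, ran from 1.04 to 2.92 CPM over the colony lines, against 0.522, 1.37 and 0.220 CPM in AICAR GFP+ libraries, and these ranges overlap.

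**Figure D5:**
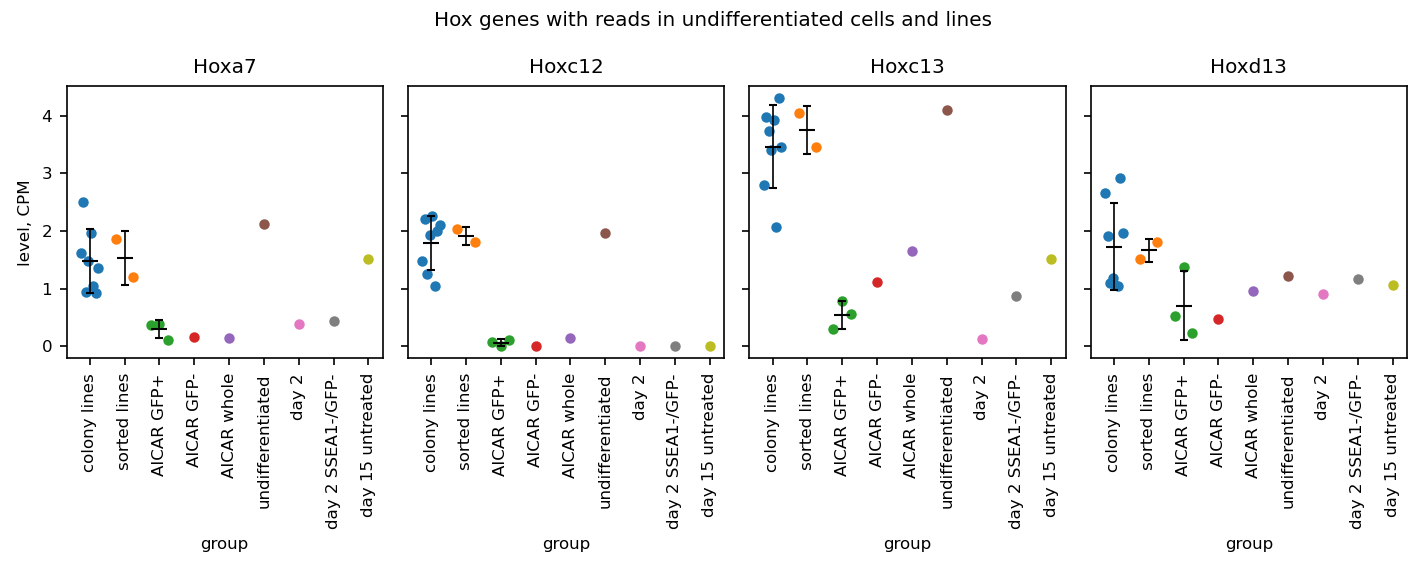
CPM of Hoxa7, Hoxc12, Hoxc13 and Hoxd13, 1 point per library, with the mean and SD as a bar where a group has more than 1 library. Hoxc12 is at 1.04 to 2.27 CPM in the colony lines and 1.97 CPM in undifferentiated cells, and at 0 to 0.138 CPM in the day 2, AICAR and untreated day 15 libraries.

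In the edgeR test of colony lines against AICAR GFP+ cells 5 Hox genes passed the filter and 3 rose (27.6% of all 12225 entries rose). These 3 passed the filter mostly through the colony lines, where they are high, so their share is a description. Hoxc12 averaged 1.79 ± 0.47 CPM in colony lines (SD, n = 8) and 0.062 ± 0.056 CPM in AICAR GFP+ cells (SD, n = 3), a log2 fold change of 4.68 ± 0.55 (SE; edgeR adjusted p = 8.36e-06). Hoxc13 rose by 2.59 ± 0.33 (edgeR adjusted p = 1.93e-05) and Hoxa7 by 2.17 ± 0.44 (edgeR adjusted p = 0.000815). Their rise held against the single GFP+ library of the first sequencing project, with adjusted p of 0.00237, 0.00146 and 0.00796 for Hoxc12, Hoxc13 and Hoxa7 in edgeR. Hoxd13 was higher in the mean but did not pass (1.16 ± 0.48, edgeR adjusted p = 0.0539). The count that fell was 0 (30.3% of all entries fell), with 0 at an unadjusted p under 0.05. The filter asked for reads in 3 libraries and so left out Hoxa11 and Hoxa10, which had most of theirs in 2; without the filter 6 Hox genes fell in edgeR (Hoxa9, Hoxa10, Hoxa11, Hoxa13, Hoxb8 and Hoxc4), and DESeq2 called 4. Hoxa11 ran from 0 to 0.303 CPM over the colony lines, and its log2 fold change without the filter was -5.38 (edgeR adjusted p = 2.22e-05).

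Hoxc12 and Hoxc13 were also higher in the sorted lines than in AICAR GFP+ cells. Of 6 Hox genes that passed, 2 rose against AICAR GFP+ cells (17.5% of all 12593 entries rose), Hoxc12 by 4.85 ± 0.81 (edgeR adjusted p = 0.00663) and Hoxc13 by 2.73 ± 0.49 (edgeR adjusted p = 0.00824), both higher in 2 of 2 lines. Both passed the filter through the sorted lines, where they are high, so their share is a description. The count that fell was 0 (19.1% of all entries), with 1 at an unadjusted p under 0.05 and 1 in DESeq2, Hoxa11 in each. Hoxa11 had 0 reads in both sorted lines (edgeR adjusted p = 0.0554). Without GFP+ library 3 the GFP+ side was of the second sequencing project alone, and the lines were of the first. Leaving out either sorted line left 0 that rose, and leaving out GFP+ library 3 gave 4.

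Against the untreated day 15 culture the colony lines were low in nearly all Hox genes. Of 33 genes that passed, 28 fell (42% of all 14375 entries fell) and 2 rose (35.4% rose), and DESeq2 called 27 and 1. Most that fell passed the filter through the untreated library, so their share is a description. The 2 that rose were Hoxc12, with 0 reads at day 15 and so at least 5.08-fold higher in colony lines (edgeR adjusted p = 0.000238), and Hoxc13 (1.19 ± 0.43, edgeR adjusted p = 0.0216). Here the posterior genes fell too, 10 of the 14 that passed, beside 5 of 5 anterior and 13 of 14 central genes. Hoxb3 had 1 read over the 8 lines together (-8.60 ± 0.48, edgeR adjusted p = 3.24e-09) and Hoxa11 had 4 (-6.43 ± 0.56, edgeR adjusted p = 2.62e-07). The median log2 fold change was -4.88 over the 33 genes and -0.13 over all entries.

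No Hox difference was called between colony lines and undifferentiated cells, or between the 2 kinds of line. Sorted lines were not tested against undifferentiated cells. In edgeR 6 Hox genes passed in colony lines against undifferentiated cells, with 0 higher (0.00812% of all 12314 entries) and 0 lower (0.0244%). Between colony and sorted lines 6 passed, with 0 higher and 0 lower (0% of all entries in either direction). In neither comparison did any Hox gene have an unadjusted p under 0.05 or a DESeq2 call. The standard errors give the precision: Hoxc13 differed by -0.28 ± 0.35 on the log2 scale between colony lines and undifferentiated cells, and Hoxb13, a tail and prostate gene, by -1.33 ± 0.86. The summed level was 13.7 ± 3.13 CPM in colony lines (SD, n = 8, from 9.51 to 19.5 CPM) and 15.7 ± 0.51 CPM in sorted lines (SD, n = 2), against 17.8 CPM in undifferentiated cells. Of the 12 genes that reached 5 CPM somewhere, Hoxb9 was the one above 1 CPM in the mean of either kind of line. It ran from 0.303 to 1.77 CPM over the colony lines (median 0.963) and was at 0.676 and 1.65 CPM in the sorted lines, against 1.21 CPM in undifferentiated cells. The other 11 ran from 0 to 1.05 CPM over the 10 lines, with Hoxd11 in colony line 10 at the top.

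Most genes of Hox partner proteins were lower in AICAR GFP+ than in untreated day 15 cells. TALE homeobox genes make proteins that bind DNA together with Hox proteins. Of 9 such genes, 6 were over 2-fold higher in untreated day 15 than in undifferentiated cells (32.3% of all entries were). In AICAR GFP+ cells 7 fell against the untreated culture in edgeR, where 9 passed the filter (23.2% of all entries fell). Meis1 was at 1.84 ± 2.32 CPM in AICAR GFP+ cells (SD, n = 3), against 81.3 CPM in the untreated culture. Meis2 was at 5.32 ± 1.38 CPM, against 77.7 CPM. In colony lines Meis2 was at 25.8 ± 3.17 CPM (SD, n = 8).

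A list of 15 genes covered Cdx, retinoic acid and axial patterning. In untreated day 15 against undifferentiated cells 10 were over 2-fold higher and 2 lower (32.3% and 22.8% of all entries). Of the 13 that passed, 9 fell and 1 rose in AICAR GFP+ cells against the untreated culture (23.2% and 23.1% of all entries). In AICAR GFP+ libraries 1, 2 and 3, 7, 8 and 8 of the 15 reached 1 CPM, against 12 in the untreated library. The share that fell is therefore a description. Summed, the 15 genes were at 319, 368 and 315 CPM in these GFP+ libraries, against 416 CPM in the untreated culture and 223 CPM in undifferentiated cells. Aldh1a2, which makes retinoic acid, was at 0.154 ± 0.167 CPM in AICAR GFP+ cells (SD, n = 3), against 32.5 CPM in the untreated culture, and the retinoic acid-binding protein gene Crabp1 at 4.55 ± 0.78 CPM, against 40.6 CPM. Cdx1, a caudal factor that regulates Hox genes, was chosen after its values were seen. It was at 27.7 ± 5.56 CPM in colony lines (SD, n = 8), at 0.550 ± 0.102 CPM in AICAR GFP+ cells (SD, n = 3), at 0 CPM in untreated day 15 cells and at 44.5 CPM in undifferentiated cells.

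Most genes flanking the clusters did not pass the test. Of 17 neighbours 15 passed the filter in AICAR GFP+ against untreated day 15 cells. Among the 15, 2 rose and 1 fell (23.1% and 23.2% of all entries), and their median log2 fold change was 0.37. The one that fell was the joined entry 5730457N03Rik+Evx1, which holds Evx1 beside HoxA, at 0.526 ± 0.353 CPM in AICAR GFP+ cells (SD, n = 3) and 4.45 CPM in the untreated culture. Of 16 noncoding genes of the clusters, 8 entries were found and 2 passed the filter: the joined Hoxa11 entry and Mir196a-1, a microRNA gene of HoxB, at 0.821, 0.522 and 0.881 CPM in AICAR GFP+ libraries 1, 2 and 3, against 0.351 CPM in the untreated culture, from 3 reads.

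Other tissue lists, all tested in AICAR GFP+ against untreated day 15 cells, moved as follows. Over all entries 23.2% fell and 23.1% rose in this test. Of the 10 mesenchyme genes 9 fell, and of the 8 limb and lateral plate genes 8 fell. The limb and lateral plate genes passed the filter mostly through the untreated library. Of the 10 mesenchyme genes 2, 2 and 7 reached 1 CPM in AICAR GFP+ libraries 1, 2 and 3, against 10 in the untreated library. In all lists of this paragraph a gene could pass through 1 library of either side, so the shares are a description. Of 10 paraxial and somitic mesoderm genes 8 passed the filter, 5 fell and 1 rose. In AICAR GFP+ libraries 1, 2 and 3, 3, 3 and 1 of these 10 reached 1 CPM, against 5 in the untreated library. The one that rose was Tcf15, at 140 ± 50.7 CPM in AICAR GFP+ cells (SD, n = 3) and 0.702 CPM in the untreated culture. Of 10 fore- and midbrain genes 8 passed, 3 fell and 2 rose, and of 10 neural genes 8 passed, 4 fell and 2 rose. Of 8 endothelial and blood genes 5 passed, 1 fell and 1 rose, and of 6 gut endoderm genes Foxa1 had the smallest p (edgeR adjusted p = 0.117). All 9 naive and 5 of 5 further pluripotency genes rose. The part of any of these cell types in the Hox levels was not tested.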

How the data were processed

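RNA of 19 libraries of mouse Rex1-GFPd2 embryonic stem cells and their descendants was sequenced. The authors deposited raw read counts for each gene entry, from unique alignments, which rpkmforgenes took against the mm9 RefSeq table, per the file headers. The RPKM column deposited beside them excludes 3' UTRs from the exon length, per the file headers. Reads were aligned with TopHat2 2.0.14 and Bowtie2 2.2.5 after trimming with Trimmomatic 0.3.3, per the submitters' processing notes. Libraries held 5771671 to 14233421 reads in genes. No strand option stands in the counting command.

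Samples were grouped by title. Groups with a replicated side were compared with edgeR 4.0.16 (R 4.3.3) by the quasi-likelihood test with TMM scaling, the tool's filter (minimum count 10, total 15) and Benjamini-Hochberg adjusted p under 0.05, on the whole table and only the libraries compared. DESeq2 1.42.0, RLE scaling, no filter, a fit over 19 libraries, leaving out libraries and a replicate block were alternatives. Single libraries were compared by log2 CPM ratios (prior count 2, at least 20 reads, over 2-fold), with exact conditional 95% intervals and no test. Zero counts have a floor of 3 reads, per library, or over the group where said. The edgeR step was tested on simulated data. Members with a group mean of at least 5 CPM were described in full; companion genes were named by smallest adjusted p or largest ratio in lists. A companion gene that this rule names is not reported here. The members and lists were chosen with earlier results of these data known. Promoter windows come from RefSeq on GRCm38.p6, matched by symbol. Replicates were compared in 32 pairs, with chi-square per degree of freedom of 1.96 to 51.05, where 1 is counting noise, so none was counted as a copy. The largest values, 51.05 and 47.66, were those of AICAR GFP+ library 3 against libraries 1 and 2, of the other sequencing project. Libraries 1 and 2 gave 10.49 against each other.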

Additional observations from a re-analysis of the deposited data

How the results depend on the processing

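Over the 12 Hox genes with a group mean of at least 5 CPM, 336 values kept direction and side of the threshold, 20 passed it only under the alternative, 2 (both Hoxb8) were lost and 5 changed sign; of the counts, 206 stayed within 1.5 times and 50 did not. Calls of the other Hox genes enter only through the counts. The causes were not tested. Fits without AICAR GFP+ library 3 set the second sequencing project against the first, so group and project cannot be told apart in them. Outside the untreated day 15 library few Hox genes had over 20 reads.

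For AICAR GFP+ against untreated day 15, leaving out 1 GFP+ library gave 9 to 22 lower genes. For AICAR GFP+ against undifferentiated cells, DESeq2 gave 1 higher, the fit over 19 libraries 1 higher and 5 lower, and leaving out a library 0 to 2 higher and 0 to 1 lower. For AICAR GFP+ against GFP-, the fit over 19 libraries gave 1 higher and 2 lower, and leaving out a library 0 to 1 higher. For colony lines against AICAR GFP+, no filter gave 5 higher and 6 lower, DESeq2 4 lower, the fit over 19 libraries 6 higher and 6 lower, and leaving out a library 0 to 1 lower. For sorted lines against AICAR GFP+, the fit over 19 libraries gave 6 higher and 2 lower, the first sequencing project alone 5 higher, no filter 1 lower, DESeq2 1 lower, and leaving out a library 0 to 4 higher and 0 to 2 lower. For colony lines against untreated day 15, DESeq2 gave 1 higher.

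Replicate numbers 1 and 2 of the sorted lines and AICAR GFP+ showed no sign of pairing (correlation of their deviations 0.0385 over 12593 entries). That correlation uses 1 difference per group, between groups of different sequencing projects, so it cannot exclude pairing. The replicate block gave 4 higher and 2 lower, and a fit without the block on the same 4 libraries, added after seeing the data, also 4 higher and 2 lower.

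Between single libraries, at least 50 reads left 10 higher in untreated day 15 against undifferentiated and against SSEA1-/GFP- cells, and 10 lower in the whole AICAR culture and in AICAR GFP- against untreated day 15. The single lower call in SSEA1-/GFP-, untreated day 15 and AICAR GFP- cells against undifferentiated cells went to 0 at 4-fold and at 50 reads. At 2 CPM in place of 1 CPM, the number of genes was 2 in undifferentiated cells, 0 at day 2, 0 in SSEA1-/GFP-, 1 in the whole AICAR culture, 0 in AICAR GFP-, 1 in AICAR GFP+, 1 in colony lines and 1 in sorted lines; at 1 RPKM it was 0 at day 2 and 5 in the whole AICAR culture.

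Hoxb9 changed sign without passing the threshold: leaving out a GFP+ library gave -0.0571 to 0.5295 in AICAR GFP+ against undifferentiated cells; the first project alone gave 0.3949 in colony lines and 0.6132 in sorted lines against AICAR GFP+. Leaving out a library gave -1.1134 to 0.1571 in sorted lines against AICAR GFP+ and -0.6703 to 0.5855 in colony against sorted lines. The first project alone could not be fitted where it leaves 1 library on each side.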
